A study of Triticum aestivum with 14 samples.

Results

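Accessible chromatin regions (ACRs) on the homoeologous group 4 chromosomes of wheat, 4A, 4B and 4D, were described over 6 lists, 1 for each of 3 tissues in each of 2 conditions. Members were chosen by chromosome and not by a value measured on a region: every region listed on 4A, 4B or 4D was kept. Earlier results of these data were known when this choice was made. This gave 114648 of 892288 listed ACRs, or 12.8%, with 40909 on 4A, 37807 on 4B and 35932 on 4D. The same stretch of chromosome can be listed in several tissues, so these are list entries and not 114648 separate places. The lists give no chromosome lengths, so each chromosome was measured up to its outermost ACR in any list, which gave 744.6 Mb for 4A, 673.5 Mb for 4B and 509.9 Mb for 4D, together 13.7% of the length of all 21 chromosomes.

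All samples came from AK58, a winter wheat cultivar, and were assayed by ATAC-seq, in which the Tn5 transposase cuts and tags DNA that is not wrapped in packed chromatin. Unvernalized leaves, axillary buds and shoot apices came from plants grown for 2 weeks without cold. The vernalized samples of the same 3 tissues came from plants given 1 month of cold at 4 °C and 1 day in the greenhouse after it. The paper's figure legends place this cold after 2 weeks of growth, so the vernalized plants were older when sampled. Vernalization and an interval of growth were therefore applied together. The labels describe 2 samples for each group, but 1 list was used for each, and whether a list rests on 1 sample or on both is not given in the sources used here. No spread between replicates could be measured, no test of a difference between lists was possible, and every interval below is a 95% interval for counting error only. Neighbouring ACRs are not independent, so these intervals are narrower than the real error. Read depth was not given with the lists, and its part in the differences between lists was not tested.

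Common wheat carries 3 related sub-genomes, A, B and D, and each chromosome has a homoeologue, its counterpart of shared ancestry, in each of the other sub-genomes. Homoeologues usually keep genes in the same order, with gene-rich ends and a repeat-rich middle. Chromosome 4A is the best known exception: a pericentric inversion exchanged much of its arms, and translocations brought segments of 5A and 7B to the end of its long arm. Chromosomes 4B and 4D kept the ancestral layout. Group 4 also carries the Rht dwarfing loci on 4B and 4D, and copies of the flowering repressor VRN2 lie on the same pair. ACRs mark promoters, enhancers and other places where proteins bind DNA. No sequence or gene annotation of the build of the lists was used here, so ACRs are described by position and not by gene.

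The D chromosome was the most densely covered of group 4. Chromosome 4D held 9.96 ACRs per Mb in leaf, 13.5 in axillary bud, 10.2 in shoot apex, 11 in vernalized leaf, 13.6 in vernalized axillary bud and 12.2 in vernalized shoot apex. Chromosome 4B held 8.40, 10.9, 8.32, 8.50, 10.6 and 9.48 ACRs per Mb in the same order of lists. Chromosome 4A held 8.00, 11, 8.09, 7.38, 11.1 and 9.32. Chromosome 4D was above both homoeologues in 6 of 6 lists, and 4A and 4B lay close to each other in most.

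The ratio of 4D to 4B density ran from 1.19 (1.14 to 1.23) in leaf to 1.29 (1.25 to 1.34) in vernalized leaf. The ratio of 4D to 4A density lay between 1.22 and 1.31 in 5 lists and was 1.49 (1.43 to 1.54) in vernalized leaf. The order of 4A and 4B was not constant. The ratio of 4B to 4A was 1.15 (1.11 to 1.20) in vernalized leaf and 0.948 (0.918 to 0.979) in vernalized axillary bud, and its interval included 1 in axillary bud, shoot apex and vernalized shoot apex. Neither ACRs of at least 500 bp nor the length covered by ACRs changed the place of 4D, which stayed above 4A and 4B in 6 of 6 lists by either measure.

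Against the rest of the genome, 4D ranked 6 or 7 of 21 in density, 4B from 13 to 18 and 4A from 16 to 20. The other 18 chromosomes spanned 5.78 to 16.2 ACRs per Mb over the lists, so none of the 3 lay outside their range. The D chromosome was the densest of its group in all 7 groups in each list, so this order is not one of group 4 alone. Among the 7 D chromosomes, 4D had the lowest density in 5 lists and ranked 6 of 7 in vernalized leaf; the other D chromosomes held 10.4 to 11.8 ACRs per Mb in leaf. Group 4 as a whole held 8.66 ACRs per Mb in leaf, against 9.25 on the other 18 chromosomes, and was below them in each of the 6 lists.

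**Figure D1:**
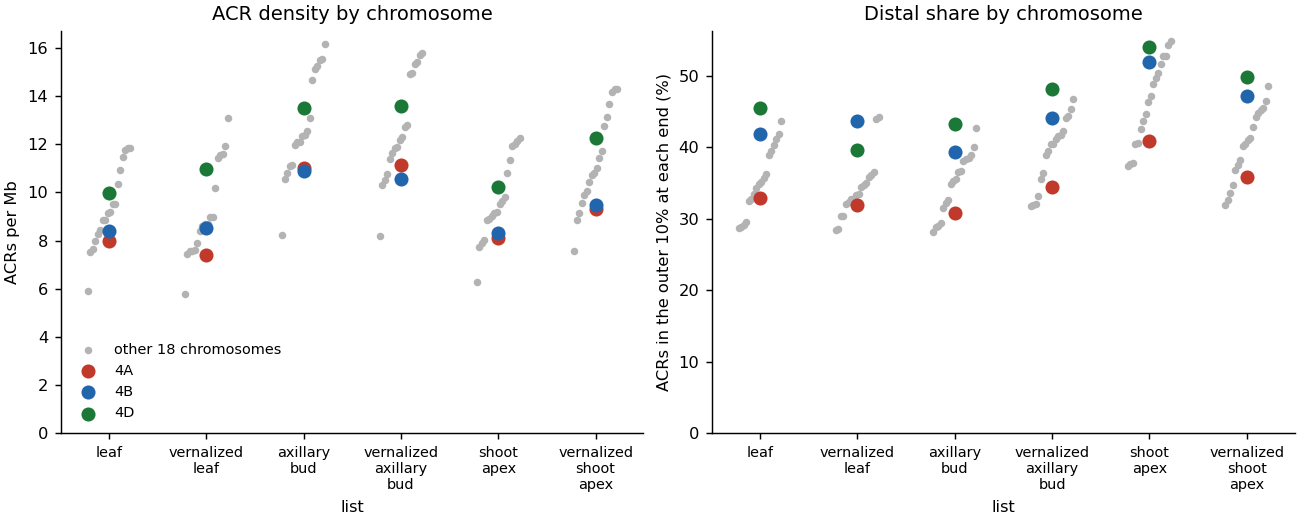
Left, ACRs per Mb of chromosome (vertical axis) in each of the 6 lists; right, share of the ACRs of a chromosome that lie in the outer 10% of its length at either end (vertical axis, %). Large points are 4A, 4B and 4D and small grey points the other 18 chromosomes, sorted by value within a list, with 1 value per chromosome and list and no error bars. Chromosome 4D lies above 4A and 4B in density in every list, and 4A lies below 4B and 4D in distal share in every list.

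ACR width set the lists apart far more than it set the homoeologues apart. Median widths on 4A, 4B and 4D were 432, 450 and 450 bp in leaf, and 650 bp on all 3 in axillary bud. They were 431, 445 and 450 bp in shoot apex, and 407, 412 and 413 bp in vernalized leaf. The vernalized axillary bud median was 550 bp on all 3, and in vernalized shoot apex 4B stood at 509 bp against 450 bp on 4A and 4D. ACRs of 1 kb or wider made up 34.0% to 35.5% of those of axillary bud, against 11.9% to 12.9% in vernalized leaf. The widest single ACR, of 20350 bp, was an axillary bud ACR on 4A.

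The study cut peaks into overlapping bins of 150 bp before joining them, so a width can be a whole number of bins or can be cut short at the edge of a peak. Widths of a whole number of bins made up 94.1% to 95.9% of the ACRs of both axillary bud lists, 77.4% to 78.5% in vernalized shoot apex, 43.0% to 43.4% in vernalized leaf, 33.7% to 34.5% in leaf and 12.6% to 12.8% in shoot apex. These shares were alike on the 3 chromosomes and differed between lists, and their part in the widths and overlaps of the lists was not tested. On each chromosome in each list, the median within the outer 10% at either end was equal to or above that inside. In leaf it was 450 bp against 421 bp on 4A, and in vernalized shoot apex 550 against 450 bp on both 4B and 4D.

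Position along the chromosome separated 4A from its homoeologues. Distal here means the outer 10% of the length at either end, 20% of the chromosome in all, and interior the remaining 80%; it does not refer to distance from a gene. On 4A the distal share of leaf ACRs was 32.9%. It was 30.8% in axillary bud, 40.9% in shoot apex, 31.9% in vernalized leaf, 34.4% in vernalized axillary bud and 35.8% in vernalized shoot apex. On 4B it was 41.8%, 39.4%, 51.9%, 43.7%, 44.1% and 47.1% in the same order. On 4D it was 45.5%, 43.3%, 54.0%, 39.6%, 48.2% and 49.8%. ACRs were denser toward the ends on all 3, and 4A had the smallest distal share in 6 of 6 lists.

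With distal set at 5% or at 20% of each end, and with ACRs of at least 500 bp, 4A was again below both in 6 of 6 lists. Chromosome 4D had the highest distal share of all 21 chromosomes in 4 lists and ranked 3 and 4 in shoot apex and vernalized leaf. Chromosome 4B ranked from 3 to 6, and 4A from 15 to 17. Vernalized leaf was the one list in which 4B (43.7%, 42.4 to 45) was above 4D (39.6%, 38.3 to 40.9).

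Set out as densities, the distal zones of 4A held 11.8 to 19.2 ACRs per Mb over the lists, those of 4B 17.5 to 23.3 and those of 4D 21.8 to 32.7. The interiors were closer: 4A held 5.98 to 9.52 ACRs per Mb there, 4B 5.0 to 8.24 and 4D 5.87 to 9.56. So 4A and 4B, which were close in overall density, differed in where their ACRs lay: 4B was denser than 4A in the distal zones in 6 of 6 lists and sparser in the interior in 6 of 6.

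Each chromosome was then divided into 20 stretches of equal length, each 5% of it. The last stretch, from 95% to the end, was the densest on 4B and on 4D in all 6 lists. It held 757 ACRs on 4B and 822 on 4D in leaf, and 1070 and 1155 in shoot apex. On 4A the same end was less dense than the start. The last stretch of 4A held 438 leaf ACRs, 468 of axillary bud, 578 of shoot apex, and 400 of vernalized leaf, 582 of vernalized axillary bud and 445 of vernalized shoot apex. The first stretch held 586, 826, 858, 503, 934 and 858. The log2 ratio of last to first on 4A was between -0.95 and -0.33 over the lists, whereas the end was denser on 4B (0.08 to 0.41) and 4D (0.28 to 0.46).

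This asymmetry of 4A depended on how much of each end was counted. With 10% at each end, the log2 ratio of last to first on 4A was 0.03 in leaf and in shoot apex, -0.18 in axillary bud, 0.28 in vernalized leaf, -0.06 in vernalized axillary bud and -0.17 in vernalized shoot apex, while 4B (0.26 to 0.55) and 4D (0.30 to 0.55) again held more at the end. With 20% at each end, 4A also held more at the end, with 0.41 to 0.57, beside 0.34 to 0.64 on 4B and 0.27 to 0.60 on 4D.

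On 4A the densest block of the later stretches lay between 75% and 85% of the length, short of the end. There 4A held 1246 ACRs in leaf, 1826 in axillary bud, 1264 in shoot apex, 1024 in vernalized leaf, 1836 in vernalized axillary bud and 1574 in vernalized shoot apex. That is 18.6% to 22.7% of the ACRs of 4A in 10% of its length. The same block held 6.85% to 10.5% of the ACRs of 4B and 8.56% to 9.89% of those of 4D. Chromosome 4A ranked 1 of 21 in this share in every list; the highest other chromosome was 5A or 1B, with 17.1% to 19.7%. At the mirrored place, 15% to 25%, 4A held 5.83% to 7.39%. The block was chosen after the profiles were seen, and no test is attached to it.

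Within the interior, the densest stretch of 4A was the one from 80% to 85% in all 6 lists, with 533 ACRs in vernalized leaf and 1040 in vernalized axillary bud as its extremes. On 4B the densest interior stretch ran from 85% to 90% in all 6 lists, next to the distal zone, and on 4D it did so in 5. The sparsest stretch of 4A began at 45% or 50% in every list, and that of 4B at 30% in every list. On 4D it lay at 30%, 35% or 50%. The contrast between densest and sparsest stretch was largest in shoot apex on all 3, with 19.1-fold on 4A, 25.5-fold on 4B and 24.6-fold on 4D, and smallest in vernalized leaf, with 5.85-fold, 8.01-fold and 7.84-fold.

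**Figure D2:**
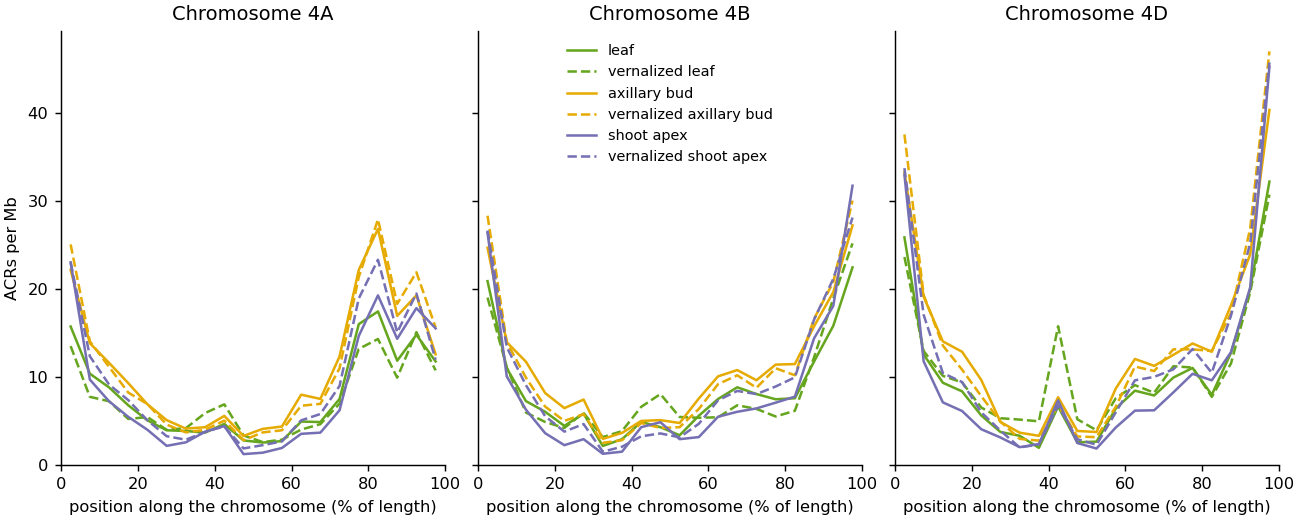
ACRs per Mb (vertical axis) in 20 stretches of equal relative length along 4A, 4B and 4D (horizontal axis, % of chromosome length), with 1 line per list, solid before and dashed after vernalization. On 4B and 4D the lines are highest in the last stretch, whereas on 4A all 6 lines have a peak between 75% and 85%. On 4D all 6 lines also have a peak between 40% and 45%, highest in vernalized leaf, where 402 ACRs were called against 169 in leaf.

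To describe how alike the homoeologues are, the profiles over the 20 stretches were correlated. The stretches of a chromosome share a library and are neighbours, so these values carry no p-value. The 4B and 4D profiles had a Pearson r of 0.91 to 0.98 over the lists, with a median of 0.98. The 4A profile had an r of 0.61 to 0.78 with 4B (median 0.69) and of 0.61 to 0.75 with 4D (median 0.65). For the 18 pairs of the other 6 homoeologous groups, medians lay between 0.82 and 0.97. The pairs with 4A were the lowest of all 21 pairs in 5 lists; in vernalized leaf, 7B with 7D (0.59) was lower than both. With 1 profile of a pair turned end for end, r was 0.41 to 0.58 for 4A with 4B and 0.45 to 0.63 for 4A with 4D. The same turn gave 0.73 to 0.83 for 4B with 4D. Turning a whole chromosome does not undo a rearrangement of part of it, so no conclusion is drawn from these values.

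**Figure D3:**
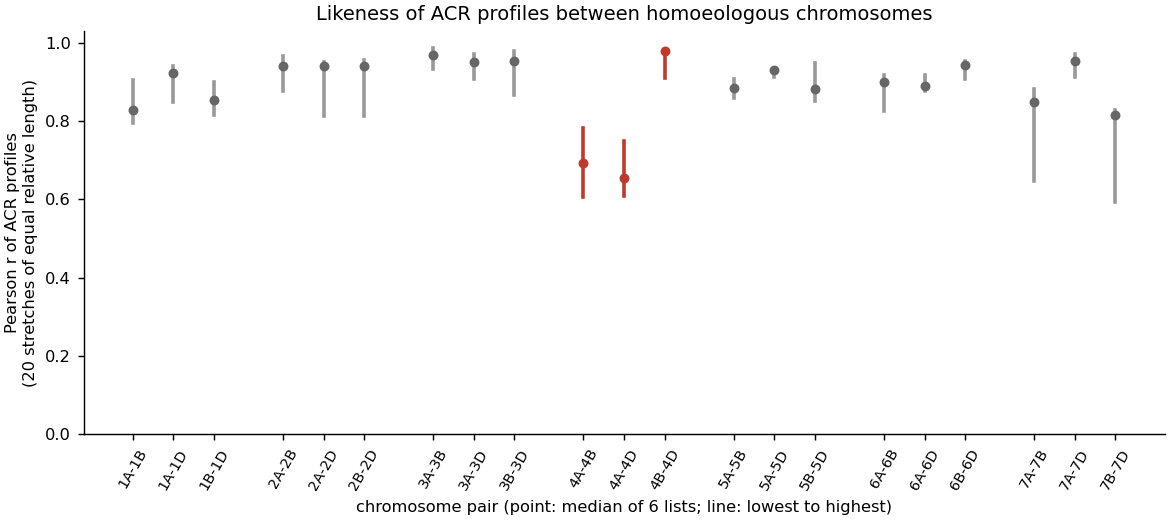
Pearson r (vertical axis) between the ACR profiles of homoeologous chromosomes over 20 stretches, for the 21 pairs within the 7 groups (horizontal axis). Points are medians over the 6 lists and lines run from the lowest to the highest list. The group 4 pairs are in red: both pairs with 4A have medians under 0.70, and 4B with 4D has a median of 0.98.

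Vernalization went with a different change in ACR number in each tissue. In shoot apex all 3 chromosomes had more ACRs after vernalization: 6023 and 6943 on 4A (15.3%, 11.4 to 19.3), 5603 and 6387 on 4B (14.0%, 9.98 to 18.2) and 5208 and 6242 on 4D (19.9%, 15.5 to 24.3). In axillary bud the counts hardly moved, by 1.22% on 4A, -2.80% on 4B and 0.77% on 4D, and each interval included 0. In leaf the homoeologues differed. Chromosome 4A went from 5954 to 5495 ACRs (-7.71%, -11 to -4.26), 4B from 5657 to 5725 (1.20%, -2.45 to 4.99) and 4D from 5076 to 5599 (10.3%, 6.19 to 14.6). These changes ranked 18, 5 and 2 of 21. The other groups shared part of this order: all 7 A chromosomes had fewer leaf ACRs after vernalization, and the change on D was above that on A in all 7 groups and above both A and B in 5.

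For group 4 together the leaf change was 0.79%, that of axillary bud -0.23% and that of shoot apex 16.3% (13.9 to 18.7), beside -2.40%, -0.95% and 16.6% on the other 18 chromosomes. The leaf and axillary bud figures depended on the measure: counted as covered length they were -8.40% and -15.5%, since ACRs were narrower after vernalization in both tissues, whereas shoot apex had 21.7% more covered length.

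Split by position, the axillary bud counts did move. Distal ACRs increased in number on 4A by 13.0% (7.09 to 19.2), on 4B by 8.92% (3.55 to 14.6) and on 4D by 12.1% (6.69 to 17.8), while interior counts changed by -4.02%, -10.4% and -7.87%. This opposite course was seen on all 21 chromosomes, so group 4 shared it with the whole genome. In shoot apex the larger gain was interior, with 25% on 4A, 25.3% on 4B and 30.8% on 4D, against 1.14%, 3.51% and 10.5% in the distal zones. Interior counts were higher after vernalization on all 21 chromosomes in shoot apex, and distal counts on 11 of the other 18.

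In leaf the 3 chromosomes went separate ways. Chromosome 4A had fewer ACRs in both zones, with -10.6% (-16.2 to -4.66) distal and -6.29% (-10.4 to -2.01) interior, and its first 10% went from 972 to 791 ACRs (-18.6%). Chromosome 4B had more distal ACRs (5.84%, 0.05 to 12), with the increase in the last 10%, which went from 1290 to 1487 (15.3%). Chromosome 4D had 22.3% (16.3 to 28.6) more interior ACRs, rank 1 of 21 beside a range of -9.89% to 17.2% on the other 18, and distal counts changed by -4.07% (-9.49 to 1.69).

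**Figure D4:**
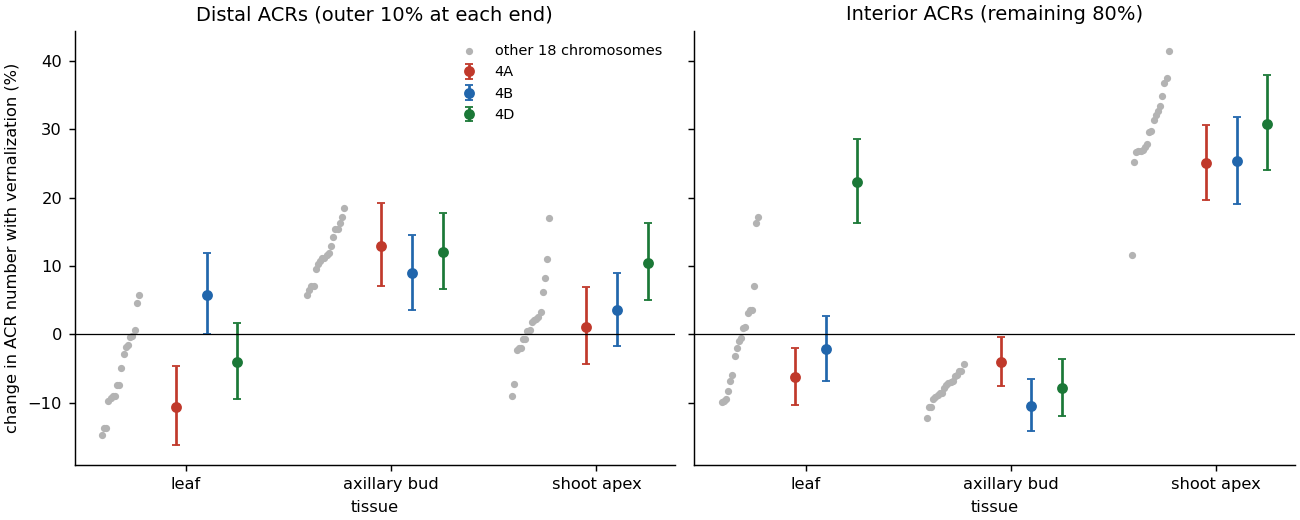
Change in the number of ACRs from the unvernalized to the vernalized list (vertical axis, %), by tissue, for distal ACRs (left) and interior ACRs (right). Coloured points are 4A, 4B and 4D with 95% Poisson intervals for counting error, and grey points the other 18 chromosomes sorted by value. In leaf, interior ACRs of 4D were 22.3% more numerous, above all grey points, and in axillary bud all 21 chromosomes lie above 0 on the left and below 0 on the right.

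Much of the 4D difference in leaf lay in the middle of the chromosome. Between 40% and 45% of its length, about 204 to 229 Mb, 4D held 169 ACRs in leaf and 402 in vernalized leaf, 2.38 times as many. In the other lists the same stretch held 196 (axillary bud), 187 (shoot apex), 174 (vernalized axillary bud) and 172 (vernalized shoot apex) ACRs. Only vernalized leaf stood far above the other lists there. In every list, however, the stretch held more ACRs than its neighbour on either side. In leaf it held 169 against 49 and 65, and in vernalized leaf 402 against 126 and 132. The rise of 233 ACRs was the second largest of all 420 stretches of the genome; the largest was on 1D, from 131 to 368. The 402 ACRs had a median width of 350 bp. Of them, 302 (75.1%) overlapped no leaf ACR, beside 48.2% of vernalized leaf ACRs over all chromosomes. The stretch was picked for its rise in number, which by itself raises this share, so no conclusion is drawn from it.

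The middle of 4A and 4B moved the same way in leaf, to a smaller extent. The stretch from 45% to 50% of 4B went from 144 to 271 ACRs and that from 35% to 40% of 4A from 136 to 219. Over the middle 30% of the length, leaf counts changed on 4A by 20.4% (9.56 to 32.3), on 4B by 21.7% (11.7 to 32.5) and on 4D by 62.6% (48.3 to 78.4), beside a median of 19.9% and a range of -11% to 60.4% on the other 18 chromosomes. In axillary bud the same zone changed by -11.6%, -12.5% and -14.2%, and in shoot apex by 23.1%, 8.32% and 22.2%.

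Overlap between the lists of a tissue shows which ACRs persisted. An unvernalized ACR was counted as lost where no vernalized ACR of the same tissue overlapped it by at least 1 bp, and a vernalized ACR as gained where no unvernalized one did. In leaf 8206 group 4 ACRs were lost, 49.2% of them, beside 50% over all chromosomes, and 8219 were gained, 48.9% beside 48.2%. In axillary bud 5223 were lost, 23.3% beside 23.6%, and 3831 gained, 17.1% beside 17.9%. In shoot apex 5248 were lost, 31.2% beside 32.5%, and 8504 gained, 43.4% beside 44.2%. Each group 4 share was thus near that of the genome.

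The retained share, the complement of the lost share, was lowest on 4A in leaf and shoot apex. In leaf 4A retained 48.6% (47.3 to 49.9), 4B 51.1% (49.8 to 52.4) and 4D 53.1% (51.7 to 54.5). In shoot apex it was 66.9%, 69.7% and 70.1%, and in axillary bud 76.9%, 75.5% and 77.6%. Chromosome 4D ranked 1, 2 and 1 of 21 in leaf, axillary bud and shoot apex.

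Retention also varied along the chromosomes. In axillary bud distal ACRs were retained more often than interior ones on all 3, by 6.73, 8.28 and 9.41 percentage points on 4A, 4B and 4D, and on the other 18 as well. In shoot apex the difference was -4.11, -2.66 and -0.68 points, and below 0 on all 21. In leaf it was 2.14 on 4A, 7.42 on 4B and -3.93 on 4D, so that the homoeologues did not share a direction. Nor did the other 18: the leaf difference was above 0 on 9 of them and ranged from -3.95 to 4.96, below the value of 4B. The largest contrast between 2 ends was on 4A in shoot apex, where 70.3% (67.7 to 72.8) of the ACRs of the first 10% were retained, the highest of 21, and 58.7% (55.9 to 61.4) of those of the last 10%, the lowest of 21.

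Lost and gained ACRs were narrow ones. In leaf the group 4 median width was 347 bp for lost and 626 bp for retained ACRs, and 315 bp for gained against 550 bp for shared vernalized ACRs. In axillary bud the 4 medians were 350, 850, 250 and 650 bp, and in shoot apex 295, 600, 350 and 750 bp. A wide ACR has more length that can be overlapped, and this was not separated from persistence.

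The wide ACRs among them are places where a whole region was called in 1 condition and none of the other lay within 1 kb. Coordinates are those of IWGSC RefSeq v1.0, counted from 1. The widest gained in leaf was chr4B:168184724-168189873, 5150 bp long and called in vernalized leaf alone. The widest lost in leaf was chr4A:690526947-690530896, of 3950 bp, and it was called in all 5 other lists with 3663 to 3950 bp covered, so vernalized leaf was the one list without it.

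In axillary bud the widest gained ACR was chr4A:594390428-594392677, of 2250 bp, which lies in the dense block of 4A and was covered for 353 to 650 bp in both leaf and both shoot apex lists. The widest lost there was chr4A:34259593-34262342, of 2750 bp, called in no other list. In shoot apex the widest gained was chr4B:17360269-17362918, of 2650 bp, covered for 2649 bp in axillary bud and 1050 bp in vernalized axillary bud. The widest lost was chr4A:713137229-713140820, of 3592 bp, which was called in leaf, vernalized leaf and vernalized axillary bud as well. Thus 4 of these 6 regions, all but the leaf gain and the axillary bud loss, were called in another tissue too.

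Between tissues of the same condition, group 4 ACRs were shared much as those of the rest of the genome. ACRs that overlapped none of either other tissue made up 17.6% of the leaf list (18.5% over all chromosomes), 36.0% of that of axillary bud (36.2%) and 18.5% of that of shoot apex (20.5%). After vernalization they made up 44.5% of the leaf list (44.7%), 26.2% of that of axillary bud (26.4%) and 14.1% of that of shoot apex (15.5%). Vernalized leaf thus stood most alone and vernalized shoot apex least. Axillary bud lists had the most and widest ACRs, and the part of this in the shares was not tested.

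The intervals of some homoeologues did not overlap in 3 of the lists. In vernalized axillary bud 29.0% (28 to 30) of the ACRs of 4A were in neither other tissue, against 24.2% (23.3 to 25.3) on 4B and 24.7% (23.7 to 25.7) on 4D. In leaf the share was 19.6% (18.6 to 20.7) on 4B, against 16.5% on both 4A and 4D. In vernalized leaf it was 42.8% (41.5 to 44.1) on 4A and 46.1% (44.8 to 47.4) on 4B, with 44.7% on 4D between them.

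The lists were also compared by the length they share over the length either covers. On group 4 this was 0.61 between axillary bud and vernalized axillary bud, 0.43 between the shoot apex lists and 0.32 between the leaf lists, lower than the 0.37 of leaf with vernalized axillary bud. Vernalized axillary bud with vernalized shoot apex reached 0.53, above both leaf and shoot apex with their own vernalized lists. Chromosome 4A was below 4B in 14 of the 15 pairs of lists and below 4D in all 15.

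Merging overlapping ACRs of the 6 lists gave 36460 consensus regions on group 4, 13071 on 4A, 12142 on 4B and 11247 on 4D. Of these, 14678 (40.3%) were called in a single list, beside 40.6% over all chromosomes, and 4765 (13.1%, 12.7 to 13.4) in all 6, beside 12.5%. The share called in all 6 was 12.5% on 4A, 13.0% on 4B and 13.8% (13.2 to 14.5) on 4D, the highest of 21 chromosomes on 4D, where the others ranged from 11.1% to 13.6%. Vernalized leaf alone called 5472 of the regions (15%, 14.6 to 15.4), beside 13.9% over all chromosomes. That share was 12.7% on 4A, 15.8% on 4B and 16.9% on 4D, which ranked 16, 3 and 2 of 21.

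Regions called in all 6 lists were more often distal on group 4 (43.5%, 42.1 to 44.9) than on the other 18 chromosomes (37.1%, 36.5 to 37.6). The 3 chromosomes did not contribute alike, with 34.8% on 4A, 48.1% on 4B and 47.9% on 4D. Their median merged widths were 1776 bp on 4A, 1915 bp on 4B and 1982 bp on 4D. Regions of a single list took different places depending on the list, on the other 18 chromosomes as well. Those of axillary bud alone (2957 regions) were distal in 26.5% (26.3% on the other 18), of vernalized leaf alone in 31.4% (28.8%) and of leaf alone (1473) in 35.3% (34.6%). Those of shoot apex alone (1640) were distal in 55.6% (60%), of vernalized shoot apex alone (1497) in 53.5% (47.0%) and of vernalized axillary bud alone (1639) in 50.7% (49.7%).

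**Figure D5:**
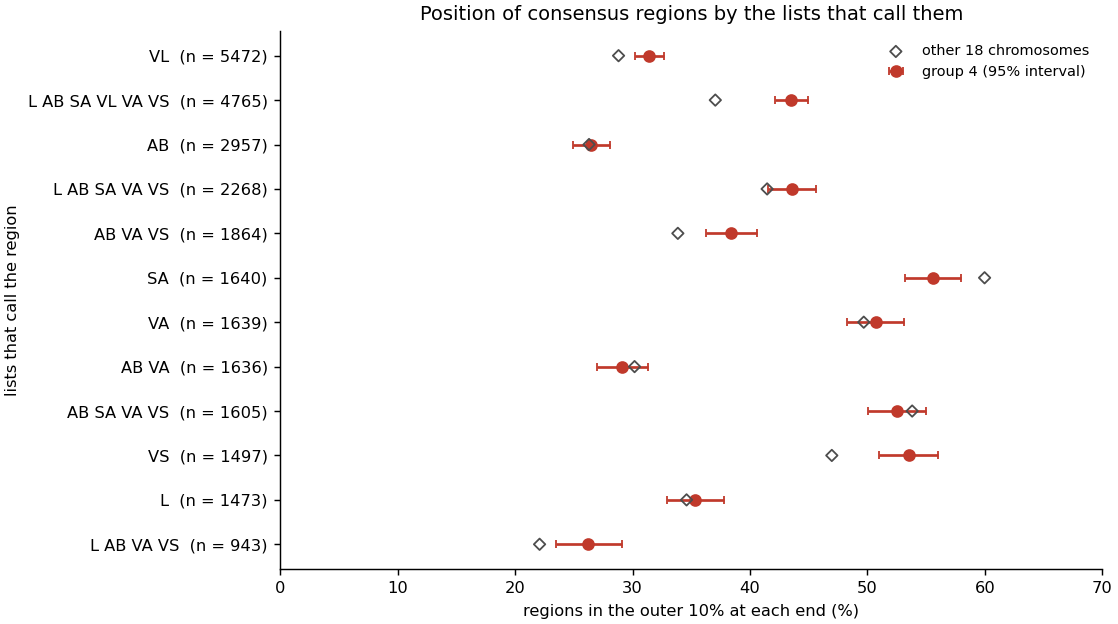
Share of consensus regions that lie in the outer 10% of a chromosome at either end (horizontal axis, %) for the 12 combinations of lists with the most group 4 regions (vertical axis, number of group 4 regions in brackets). L is leaf, AB axillary bud and SA shoot apex, and VL, VA and VS are the same tissues vernalized; filled points are group 4 with 95% Wilson intervals and open diamonds the other 18 chromosomes. Regions of all 6 lists were distal in 43.5% on group 4 and 37.1% elsewhere, and regions of axillary bud alone were the least distal of the single-list sets.

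The widest region called in every list was named on each chromosome, so a width above the typical one follows from this choice. On 4A this was chr4A:6913421-6933825, 20405 bp, covered for 11100 bp in leaf, 20350 in axillary bud, 18196 in shoot apex, 5232 in vernalized leaf, 20050 in vernalized axillary bud and 18250 in vernalized shoot apex. On 4B it was chr4B:658202498-658215265, 12768 bp, covered for 9096, 12750, 11912, 3794, 12250 and 10454 bp in that order. On 4D it was chr4D:509426717-509440835, 14119 bp, covered for 1757, 14050, 11259, 1776, 12650 and 11358 bp. All 3 lay in the outer 5% of their chromosome, and vernalized leaf covered the least of the 4A and 4B regions.

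Few regions changed with vernalization in all 3 tissues. Group 4 had 45 consensus regions called in all 3 vernalized lists and in no unvernalized one, which is 0.123% beside 0.0964% over all chromosomes, and they numbered 9 on 4A, 16 on 4B and 20 on 4D. In the other direction there were 38, or 0.104% beside 0.0888%, with 10 on 4A, 12 on 4B and 16 on 4D. Their medians were between 550 and 730 bp, against 1776 to 1982 bp for the regions of all 6 lists. A region merged from 6 lists joins more ACRs than one from 3, and this was not separated from the difference in width.

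The widest region gained in all 3 tissues on 4B was chr4B:31967580-31969381, of 1802 bp, covered for 270 bp in vernalized leaf, 1750 in vernalized axillary bud and 1350 in vernalized shoot apex. On 4A it was chr4A:585049612-585051230 (1619 bp), which also lies in the dense block, and on 4D chr4D:494253792-494254952 (1161 bp). The widest region lost in all 3 was chr4D:497186340-497188089, of 1750 bp, with 320 bp covered in leaf, 946 bp in shoot apex and its whole width in axillary bud. On 4A it was chr4A:718876171-718877820 (1650 bp) and on 4B chr4B:497860821-497861807 (987 bp). On 4D the widest gained and the widest lost region both lay between 96% and 98% of the length.

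At the scale of 1 Mb windows, the richest window of each chromosome lay near its end. On 4A it was chr4A:738000001-739000000, with 79 ACRs in leaf, 50 in axillary bud, 78 in shoot apex, 63 in vernalized leaf, 66 in vernalized axillary bud and 50 in vernalized shoot apex. On 4B it was chr4B:653000001-654000000, with 53, 66, 55, 55, 55 and 45. On 4D it was the last window, chr4D:509000001-509851274, which is shorter than 1 Mb and held 63, 103, 128, 56, 107 and 88. The median window summed over the 6 lists held 37 ACRs on 4A, 42 on 4B and 51.5 on 4D, against 386, 329 and 545 in these 3.

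The 4D window was also the one with the widest spread between lists on that chromosome: both leaf lists held 63 or fewer and the other 4 held 88 or more. On 4A the widest spread was at chr4A:660000001-661000000, where vernalized leaf held 25 ACRs and the other lists 46 to 68. On 4B it was at chr4B:1000001-2000000, where leaf held 22 and vernalized leaf 27 while shoot apex held 54. In all 3 windows a leaf list was lowest.

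The longest stretch without an ACR in any list was 2362 kb on 4A, chr4A:314707830-317070239, and 2555 kb on 4B, chr4B:223402989-225957631, both in the sparse middle. On 4D it was 3507 kb, chr4D:410297505-413804962, at 80.8% of the length and so away from the sparsest stretches of that chromosome. Stretches of over 1 Mb without an ACR numbered 39 on 4A, 40 on 4B and 24 on 4D. Whether unassembled sequence or reads of low mapping quality lie behind such empty stretches was not tested.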

How the data were processed

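ATAC-seq lists of 3 wheat tissues, unvernalized and vernalized, were analysed. Groups came from the sample labels, which give 7 groups of 2 samples; input, the seventh group, was not used here. As the methods and the submitters' processing notes state, reads were trimmed with fastp 0.21.0, aligned with Bowtie2 2.3.5.1 to IWGSC RefSeq v1.0, filtered with SAMtools 1.3.1 and Picard 2.16.0, and peaks were called with MACS2 2.2.6. The authors cut peaks into 150 bp bins overlapping by 50 bp, kept bins dense in Tn5 insertions, joined bins within 200 bp and removed peaks shared with input or chloroplast. The deposited lists hold 3 columns of positions and neither count, score nor signal, so they do not show the depth behind a call. The statistics of the sequencing data that the paper supplies were not used here. Strict mapping can lose reads in repeats, and the bin filter can alter widths. The part of either in numbers and overlaps was not tested.

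All ACRs of 4A, 4B and 4D were used as deposited. Distal and interior ACRs were assigned by midpoint. Intervals are 95% Wilson intervals for shares and Poisson intervals for ratios. Ranks are from highest to lowest over 21 chromosomes. Regions were named by rule: the widest gained and lost ACR per tissue with none of the other condition within 1 kb, per chromosome the widest consensus region in all 6 lists and the widest gained and lost in all 3 tissues, the 1 Mb windows with the most ACRs and the widest spread, and the longest ACR-free stretch. Members, measures and rules were chosen with earlier results of these data known; the profile correlation, the block of 4A, the middle 30%, the 4D stretch from 40% to 45% and leaving out vernalized leaf were chosen after seeing the values. Alternatives covered overlap rules, width, joining, end size and number of stretches. Interval functions were tested on simulated data. Computations used Python 3.11.15, numpy 2.4.6, scipy 1.17.1 and matplotlib 3.10.9. The gene table given was of another assembly and was not used.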

Additional observations from a re-analysis of the deposited data

Results flagged for a closer look

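The change in ACR number with vernalization had opposite signs in 2 tissues on the same chromosomes. With 1 list for each tissue and condition, none of these differences was tested. The counting interval included 0 on one side of 4 of these pairs: all ACRs of 4B in axillary bud (-5.92 to 0.42), distal ACRs of 4D in leaf (-9.49 to 1.69), and for the 3 chromosomes together all ACRs in axillary bud (-2.06 to 1.63) and distal ACRs in leaf (-5.75 to 0.93). On 4A, all ACRs changed by -7.71% in leaf and 15.3% in shoot apex, distal ones by -10.6% in leaf and 13.0% in axillary bud, and interior ones by -6.29% in leaf and 25% in shoot apex. On 4B, the change over all ACRs was -2.80% in axillary bud against 14.0% in shoot apex, and that of interior ACRs -10.4% against 25.3%. On 4D, distal ACRs changed by -4.07% in leaf and 12.1% in axillary bud, and interior ones by -7.87% in axillary bud against 30.8% in shoot apex. Over the 3 chromosomes together, the number of all ACRs changed by -0.232% in axillary bud against 16.3% in shoot apex, the distal number by -2.47% in leaf and 11.3% in axillary bud, and the interior number by -7.12% in axillary bud and 26.7% in shoot apex.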

How the results depend on the processing

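Of 71 values computed under alternatives, 24 stayed within their interval or within 1.5 times the count, and the cause of the other moves was not tested. With ACRs of at least 500 bp, covered length and ACRs up to 1 kb apart joined, the group 4 change was -10.2%, -8.40% and 3.48% in leaf, -14.3%, -15.5% and -3.02% in axillary bud, and 23.8%, 21.7% and 21.6% in shoot apex. The retained share was 38.9%, 62.5% and 57.9% in leaf, axillary bud and shoot apex when 50% of the unvernalized ACR had to be overlapped, 29.8%, 56.7% and 40.4% when both had to be, and 53.0%, 77.4% and 72.6% when ACRs up to 200 bp apart counted. With ACRs of at least 500 bp it was 71.0% in axillary bud, 74.6% in shoot apex, and with lists cut to equal size 80.3% and 63.7%. The 4D over 4B density ratio in leaf was 1.24 for ACRs of at least 500 bp and 1.23 by covered length, which gave 1.30 in axillary bud and 1.34 in vernalized axillary bud. The log2 end ratio of 4A in leaf, axillary bud, shoot apex and their vernalized lists in the same order was -0.42, -0.82, -0.57, -0.33, -0.68 and -0.95 for ends of 5%, and 0.42, 0.41, 0.56, 0.57, 0.52 and 0.43 for ends of 20%, which turned the sign in leaf, shoot apex and vernalized leaf at 5% and in both axillary bud lists and vernalized shoot apex at 20% (for leaf, shoot apex and vernalized axillary bud the interval of the value at 10% included 0); with ACRs of at least 500 bp it was -0.34 in axillary bud and -0.17 in vernalized axillary bud. Group 4 regions of all 6 lists and of a single list numbered 2074 and 6219 from ACRs of at least 500 bp. With vernalized leaf left out, regions called in all remaining lists numbered 7034, beside 4765 with it. Those of a single list then numbered 10957, beside 14678. The median profile correlations of 4A with 4B, 4A with 4D and 4B with 4D were 0.80, 0.77 and 0.99 over 10 stretches, and 0.60 for 4A with 4D and 0.89 for 4B with 4D over 40. No paired analysis was possible because 1 list was used for each group, and for the same reason no replicate could be left out.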
